A study of Sus scrofa with 8 samples.

Results

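The fibroblast-only regions at gene ends were stretches of pig chromosomes 1 to 18 that carried histone H3 lysine 27 acetylation (H3K27ac) beside an end of a protein-coding gene in fibroblasts and had no called H3K27ac in epiblast stem cells. They were found by merging the islands of 4 H3K27ac lists, an island being a stretch of 200 bp windows in which ChIP reads cluster above the input. A merged region was kept when it was under 20 kb wide, held an island of both fibroblast libraries and of neither epiblast library, and overlapped 2 kb on either side of a gene end. This gave 1528 of the 98547 merged regions, at the ends of 1634 of 18722 protein-coding genes. Because they were chosen by the presence or absence of islands in the 4 libraries, their widths, reads and folds are given below as a description without a test.

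The fibroblast libraries, pEF 1 and pEF 2, came from porcine embryonic fibroblasts of embryonic day 30. The epiblast libraries, pgEpiSC 1 and pgEpiSC 4, came from pre-gastrulation epiblast stem cells derived from the epiblast of embryonic day 10. Each of the 4 ChIP libraries had an input of its own, and all 4 used the same antibody and kit. Nothing in the labels tells if the libraries of one type came from separate animals, lines or cultures, so p-values measure only the spread between these samples, which may be technical.

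H3K27ac is laid down on nucleosomes around active promoters and at active enhancers, and its pattern differs between cell types more at enhancers than at promoters of genes that every cell uses. Embryonic fibroblasts build collagen-rich matrix, sense growth factors and cytokines, and keep a record of body position in the HOX genes they use. Epiblast stem cells are an epithelial, pluripotent state in which the HOX clusters and most factors of the mesoderm are not yet in use.

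ChIP reads inside islands of chromosomes 1 to 18 numbered 41264137 in pEF 1 and 45129916 in pEF 2, against 28625531 in pgEpiSC 1 and 36561661 in pgEpiSC 4. The median island had a fold of 3.40 and 3.45 over scaled input in pEF 1 and pEF 2, and of 1.79 and 1.67 in pgEpiSC 1 and pgEpiSC 4. No list holds an island under 32 reads in pEF 1 or 41 in pgEpiSC 1, so "no island" means that none was called and is not a measured zero. The lower enrichment of the pgEpiSC libraries moves with the absence that defines the regions, and its part in that absence was not tested. With islands of at least 2-fold in all 4 lists the rule gave 3134 regions, and their genes included 1402 of the 1634. Of the fibroblast markers, TWIST1 and COL1A2 lay in fibroblast-only regions over the 20 kb limit. COL1A1, PDGFRA, PRRX1 and COL3A1 lay in regions of all 4 libraries. At its ends COL3A1 had islands of both pEF libraries and of neither pgEpiSC library, and PDGFRA lacked only that of pgEpiSC 1. THY1 had an end island in both pEF libraries and in pgEpiSC 1. Of the epiblast markers, POU5F1 and SOX2 had end islands in all 4 libraries. OTX2, LIN28A and SALL4 had them in both pgEpiSC libraries and in neither pEF library, and NANOG had one in pgEpiSC 1 alone. LIN28A and SALL4 still lay in merged regions of all 4 libraries, as COL3A1 did, and OTX2 in an epiblast-only region.

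The regions were short. Their width ran from 0.2 to 19.6 kb with a median of 4.2 kb, and 1410 of them (92.3%) were 1 island in each pEF library. The median share of windows that both pEF libraries covered was 72.4% of the region. ChIP reads ran from 43 to 6783 in pEF 1 with a median of 337.5, and from 54 to 8619 in pEF 2 with a median of 333. Together the regions held 2.23% of the island reads of pEF 1 and 2.15% of those of pEF 2.

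The fold over scaled input ran from 1.06 to 56.1 in pEF 1 (median 3.77) and from 1.02 to 136 in pEF 2 (median 3.48). The fold reached 2 in both libraries at 1275 regions (83.4%), 5 at 277 and 10 at 33, while 58 regions stayed under 2 in both. The authors' FDR was under 0.01 in both libraries at 1516 regions (99.2%). Across regions the log2 folds of pEF 1 and pEF 2 had a correlation of 0.695, given as a description because regions share their libraries and are not independent replicates. At 95 regions the fold in pEF 1 was over 2 times that in pEF 2, and at 58 the reverse held.

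**Figure D1:**
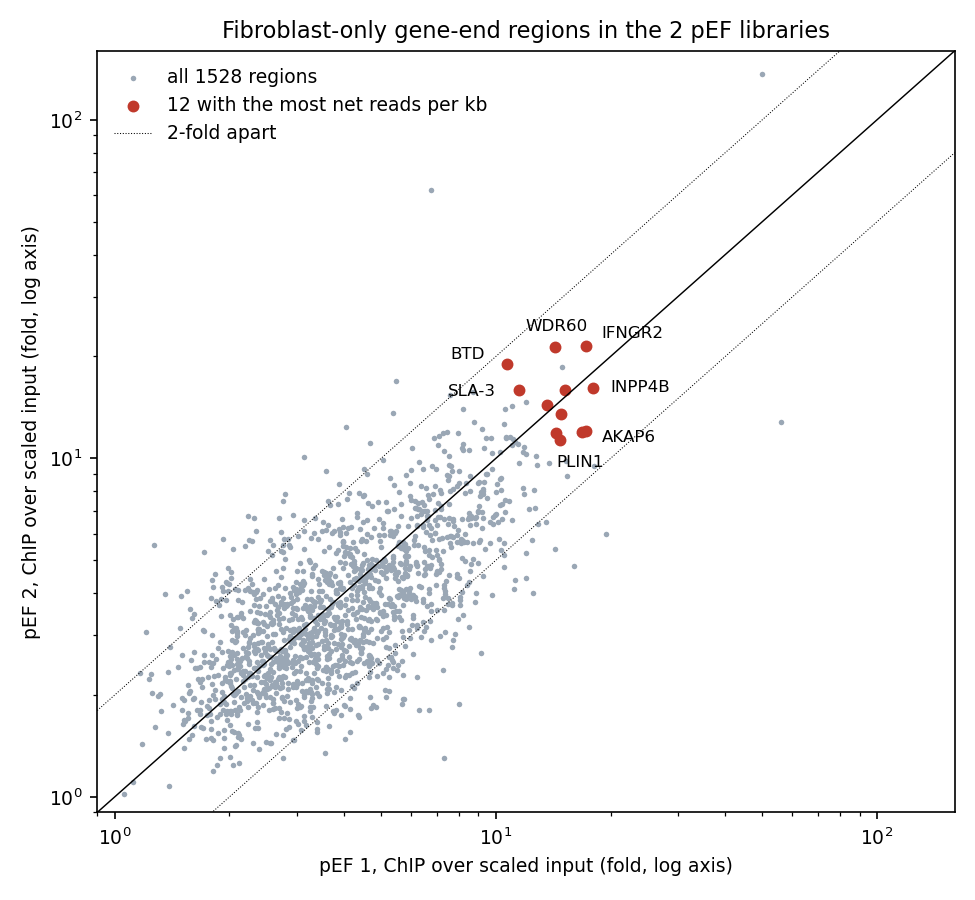
Fold of ChIP reads over scaled input in pEF 1 (x axis, log scale) and pEF 2 (y axis, log scale) for the 1528 fibroblast-only gene-end regions; red points are the 12 regions with the most net reads per kb, 7 of them labelled. Most points lie between the dotted lines that mark a 2-fold difference, which 153 regions exceed.

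Set beside other region classes of the same libraries, the gene-end regions sat between the distal fibroblast-only regions and the shared gene ends. The 7229 fibroblast-only regions inside genes had median folds of 3.03 in pEF 1 and 2.99 in pEF 2, and the 8210 between genes had 3.23 and 3.22. The 8629 regions of all 4 libraries at gene ends had median folds of 7.33 in pEF 1 and 6.65 in pEF 2, against 2.58 in pgEpiSC 1 and 2.34 in pgEpiSC 4. Shared gene-end regions were also wider, with a median of 7 kb, and had a correlation of log2 folds between pEF 1 and pEF 2 of 0.802. No test was made between classes, since regions of 1 library are not replicates and the classes were cut from the same islands. Among all 16213 gene-end regions under 20 kb, 9.42% were fibroblast-only by the rule.

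**Figure D2:**
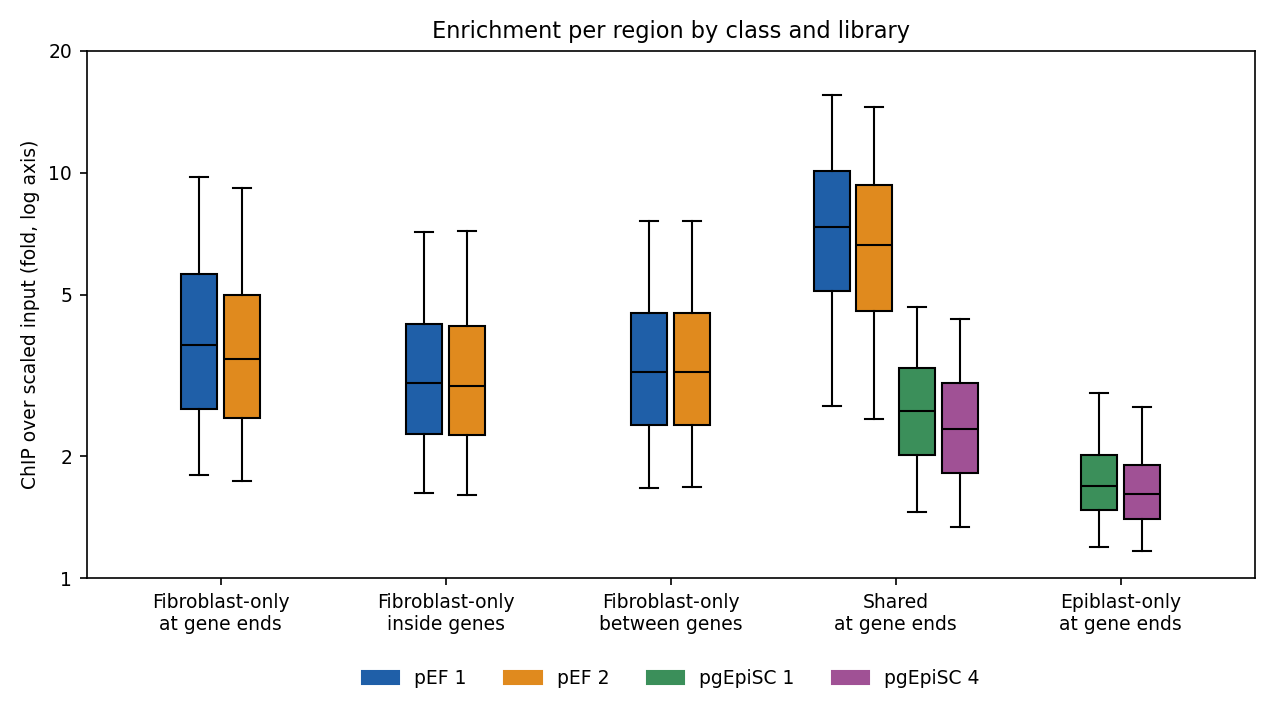
Fold over scaled input (log axis) for 5 classes of region in the libraries that have islands in them; boxes run from the lower to the upper quartile over regions, lines are medians and whiskers end at the 5th and 95th percentiles. The fibroblast-only gene ends (median 3.77 in pEF 1 and 3.48 in pEF 2) lie above the regions inside and between genes and below the gene ends shared by all 4 libraries.

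Most regions had acetylation of the epiblast cells within 50 kb, as did most fibroblast-only regions away from gene ends. The distance to the nearest pgEpiSC island had a median of 10.6 kb, and 452 regions (29.6%) had one within 5 kb and 1342 (87.8%) within 50 kb. For fibroblast-only regions inside genes the median was 10.4 kb, and 90.3% had an island within 50 kb. For those between genes the values were 15.4 kb and 81.9%. The distances are thus not a trait of the gene-end regions alone. A gene end lay inside 985 regions (64.5%), while 259 lay beside the end within the gene and 284 beside it outside the gene. The gene table holds no strand, so starts and ends of transcription cannot be told apart. A single gene was concerned at 1307 regions, 2 genes at 213 and 3 or more at 8, and 44 regions covered a whole gene.

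The other acetylation of the same genes in the epiblast cells varied. Of the 1634 genes, 767 (46.9%) had an island of both pgEpiSC libraries within 2 kb of one of their ends, against 13305 (71.1%) of all protein-coding genes. A further 413 (25.3%) had islands of both pgEpiSC libraries in the gene or within 10 kb, though not at an end in both, against 2134 (11.4%) of all genes. The remaining genes had an island of 1 pgEpiSC library (110 genes) or none within 10 kb (344 genes, 21.1%, against 13.5% of all genes). These shares are partly fixed by the rule, which asks for a gene end without a pgEpiSC island. The genes had a median length of 30.5 kb in the gene table, against 20.7 kb for all protein-coding genes.

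The strongest region by the mean over pEF 1 and pEF 2 of ChIP reads minus scaled input, per kb and per 1000000 island reads, was at IFNGR2, the signalling subunit of the interferon-gamma receptor. The region at chr13:197004601-197010000 held 2331 ChIP reads and 176 input reads in pEF 1 (17.3-fold) and 2838 and 152 in pEF 2 (21.5-fold). These net reads per kb were 9.86 in pEF 1 and 11.1 in pEF 2, against medians over all regions of 1.52 and 1.34 and highest values of 11.5 and 11.8, so that IFNGR2 led in neither library alone. The nearest pgEpiSC island was 13.4 kb away, and both pgEpiSC libraries had islands elsewhere in the gene or within 10 kb of it.

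Next came ATP6V1H, which encodes a subunit of the vacuolar proton pump, with 1271 ChIP reads in pEF 1 and 1049 in pEF 2 at chr4:77210801-77213400, or 15.2-fold and 15.9-fold. INPP4B, a phosphatase of phosphoinositide lipids, had 2556 reads in pEF 1 (18.03-fold) and 1684 in pEF 2 (16.1-fold) at chr8:84808401-84813600. AKAP6, an anchoring protein for protein kinase A known from heart muscle, had 3519 reads (17.2-fold) and 2205 reads (12.02-fold) at chr7:67457801-67464800. The fold was larger in pEF 1 at AKAP6 and INPP4B and larger in pEF 2 at ATP6V1H and IFNGR2, so no pEF library led throughout.

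The other 8 of the 12 strongest regions covered a mixed set of genes. They were at ZKSCAN2 (14.9-fold in pEF 1 and 13.6-fold in pEF 2), at the neighbours NCOA5 and SLC12A5 (16.9 and 11.9), at WDR60 (14.3 and 21.3) and at BTD, the biotin-recycling enzyme biotinidase (10.7 and 19.1). MAP3K7CL carried the widest of the 12, 19.2 kb at chr13:192533201-192552400 with 6783 reads in pEF 1 and 8619 in pEF 2, the highest read numbers of any region. SLA-3, a class I molecule of the pig major histocompatibility complex, had 951 and 885 reads (11.5-fold and 15.9-fold) at chr7:22937801-22940200. Class I genes are near-identical copies of each other, so reads at SLA-3 may be shared with its paralogs. PLIN1, a coat protein of lipid droplets, had 14.8-fold and 11.3-fold, and KRT39, a hair keratin gene, had 14.4-fold and 11.9-fold over 15.8 kb. At ATP6V1H, ZKSCAN2, SLA-3, KRT39 and PLIN1 neither pgEpiSC library had an island in the gene or within 10 kb.

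Of 680 measured genes in 24 lists of pathway and cell type genes, 138 had a fibroblast-only end region; over all 18722 protein-coding genes the share was 8.73%. The lists were drawn up with earlier results of these data known, and the rule used the same islands, so the counts are a description and no list is called particular. They also depend on which islands count: with islands of at least 2-fold in all 4 lists, 227 listed genes had a member. In the list counts below, a gene with a member was counted only as such. It was not counted again where a region of all 4 libraries also lay at one of its ends.

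HOX genes, which record position along the body axis and the limbs, had members at 20 of 36 genes (55.6%), the largest share of the 24 lists with the islands as deposited. With islands of at least 2-fold in all libraries HOX genes had 20 and interferon and antigen presentation genes 22 of 33, so the order changed. That limit lies above the fold of the median island in both pgEpiSC libraries and below it in both pEF libraries. A further 11 HOX genes lay in fibroblast-only regions of 20 kb or wider, and 1 lay in a region of all 4 libraries. HOXA4 had 499 ChIP reads in pEF 1 (6.85-fold) and 369 in pEF 2 (7.86-fold) at chr18:45441601-45444400, with the nearest pgEpiSC island 121 kb away. HOXC4 had 2874 reads (8.30-fold) and 2089 reads (5.96-fold) at chr5:19255401-19271400. The HOX regions reached from the anterior genes HOXA2 and HOXD1 to the posterior genes HOXA13, HOXC13, HOXD12 and HOXD13. HOXA13, which patterns the distal limb and the genital tubercle, had 613 reads in pEF 1 (5.30-fold) and 678 in pEF 2 (3.68-fold) at chr18:45377201-45382600. HOXC13, known from hair and nail, had 199 reads (3.25-fold) and 138 reads (2.09-fold) at chr5:19150201-19152400.

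The HOXB cluster held the longest run of neighbouring members, 5 regions from HOXB3 to HOXB8 over 54.4 kb at chr12:24827401-24881800. Their median folds were 3.39 in pEF 1 and 3.15 in pEF 2. The first of them, at HOXB3, had 310 reads in pEF 1 and 1137 in pEF 2 at nearly the same fold of 2.61 and 2.50. The last, at HOXB8, had 397 and 330 reads with 5.82-fold and 5.34-fold. Fibroblast-only blocks wider than the limit covered the middle of the other clusters, 51.4 kb from HOXA3 to HOXA11, 52.0 kb from HOXC4 to HOXC10 and 32.0 kb from HOXD8 to HOXD11. The members of HOXA, HOXC and HOXD lay on either side of these blocks.

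Mesenchymal transcription factors had a member at 21 of 56 genes (37.5%). FOXD2, a forkhead factor of the paraxial mesoderm, had 951 reads in pEF 1 (11.8-fold) and 827 in pEF 2 (10.4-fold) at chr6:164112801-164115800. TCF21, a factor of the epicardium and of visceral fibroblasts, had 2732 reads (10.6-fold) and 2302 reads (11.5-fold) at chr1:29972401-29981000. NR2F1, an orphan nuclear receptor, had 1724 reads (7.55-fold) and 2091 reads (8.87-fold) at chr2:100441601-100449400, and its nearest pgEpiSC island was 87.4 kb away. None of the 3 loci had a pgEpiSC island in the gene or within 10 kb.

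Other members of that list lay over a range of strengths. EBF1 had 10.4-fold and 6.61-fold, FOXF1 8.39-fold and 5.65-fold and OSR1, of the kidney and limb mesenchyme, 7.62-fold and 5.47-fold in pEF 1 and pEF 2. The homeobox factors MSX1 (6.20-fold and 3.22-fold), PITX1 of the hindlimb (5.87-fold and 4.5-fold) and EN1 of the ventral limb and the dermis (5.50-fold and 3.92-fold) followed. Among the weaker were MSX2 with 58 reads in pEF 1 and 133 in pEF 2 and FOXF2 with 88 and 122 reads, both between 1.9-fold and 3.3-fold. FOXF1 and MSX2 also had end islands of both pgEpiSC libraries. TWIST1 and NR2F2 met the rest of the rule but were wider than 20 kb, at 24.2 and 23.2 kb.

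Patterning factors of the T-box and paired-box families, with the sine oculis and Iroquois homologs, had members at 7 of 38 genes (18.4%). TBX15, which shapes the limb skeleton and the dermis, had 5162 reads in pEF 1 (10.8-fold) and 4288 in pEF 2 (7.48-fold) over 18 kb at chr4:101917401-101935400. A pgEpiSC island lay 1.6 kb from it. TBX5, the forelimb and heart factor, had 3998 reads (10.03-fold) and 2925 reads (6.85-fold) at chr14:37766201-37781400, with a pgEpiSC island 2 kb away. PAX1, of the sclerotome that forms the vertebrae, had 2032 reads (7.53-fold) and 1938 reads (6.65-fold) at chr17:29421401-29432200. TBX18, TBX20, PAX6 and PAX9 were the others, and TBX3 lay in a region of 20.8 kb, just over the limit.

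**Figure D3:**
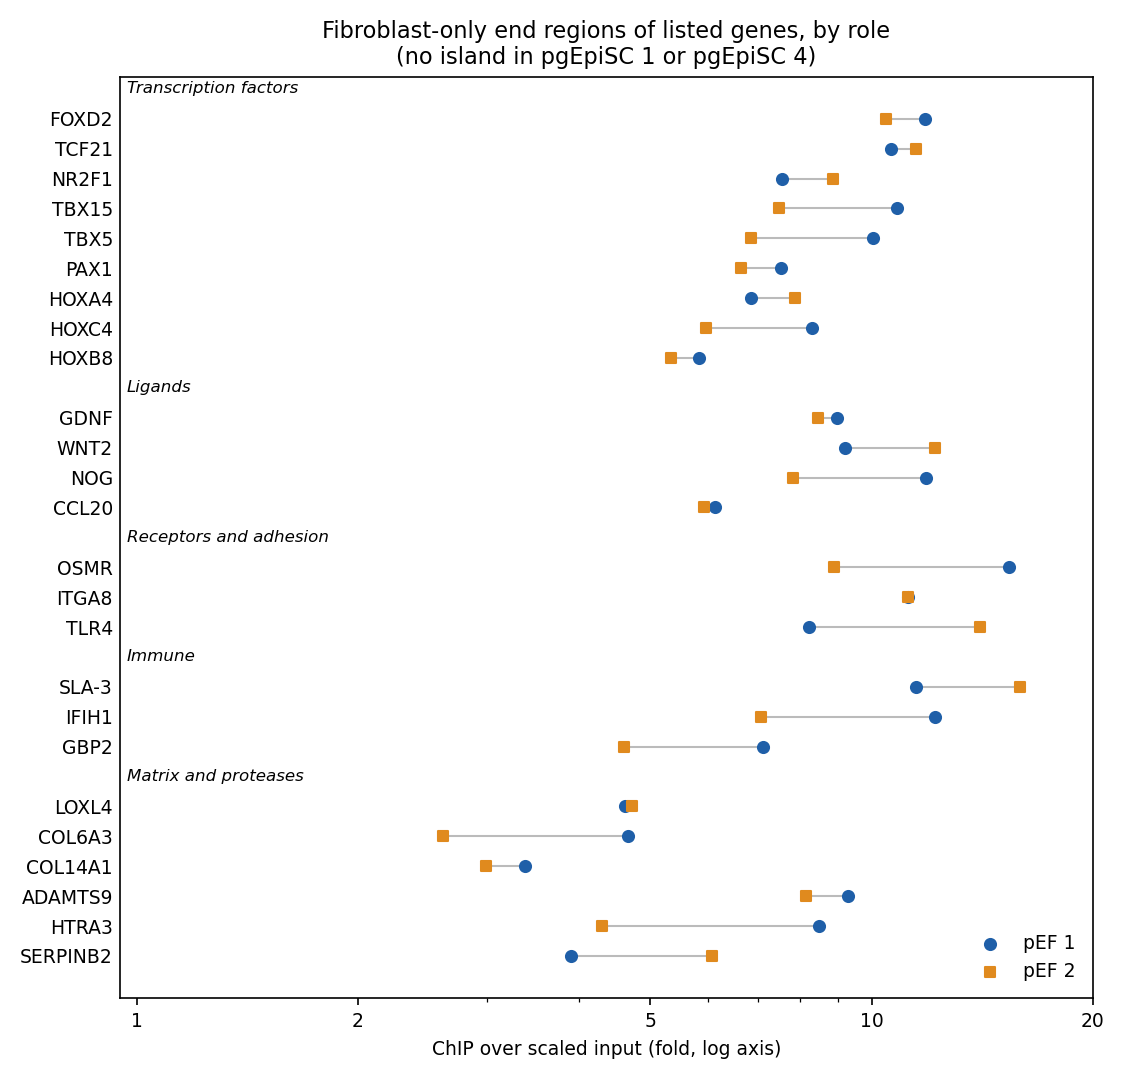
Fold over scaled input (log axis) in pEF 1 and pEF 2 at named fibroblast-only gene-end regions, for the transcription factor, ligand, receptor, immune, matrix and protease genes shown; each row is a region and each point a library. The points coincide at ITGA8 (11.2 and 11.2), and of the regions drawn those of HTRA3 (8.5 and 4.30) and COL6A3 (4.66 and 2.61) lie farthest apart.

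Growth factors, cytokines and their secreted inhibitors had members at 22 of 68 genes (32.4%). GDNF, a ligand of the RET receptor made by mesenchyme of the gut and kidney, had 2 regions. The one at chr16:22959401-22968400 held 2635 reads in pEF 1 (8.98-fold) and 2737 in pEF 2 (8.46-fold), and the one at chr16:22931401-22943400 held 2341 reads (6.79-fold) and 3245 reads (9.49-fold). WNT2, a canonical WNT ligand, had 1536 reads (9.19-fold) and 2781 reads (12.2-fold) at chr18:28992801-29000800. NOG, which encodes the BMP inhibitor noggin, had 2167 reads (11.9-fold) and 2118 reads (7.83-fold) at chr12:32888801-32896800.

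Among the secreted WNT inhibitors, DKK2 had 2389 reads in pEF 1 (6.41-fold) and 3299 in pEF 2 (6.97-fold), DKK3 had 6.37-fold and 8.26-fold and SFRP1 had 4.95-fold and 4.04-fold. A pgEpiSC island lay 1.6 kb from the DKK3 region and 0.2 kb from the SFRP1 region. Both genes had end islands of both pgEpiSC libraries. DKK1 and WIF1 were at the low end, with 235 and 106 reads at DKK1 and 118 and 131 reads at WIF1. The BMP inhibitor GREM1 had 5.52-fold and 4.61-fold. Of the FGF ligands, FGF1 (3.89-fold and 3.69-fold), FGF2 (2.57-fold and 2.26-fold) and FGF10 (3.19-fold and 2.33-fold) each had a region with at most 429 reads in either library. FGF2 and FGF10 also had end islands of both pgEpiSC libraries. RSPO3, an amplifier of WNT signalling, had 95 reads in pEF 1 and 1879 in pEF 2 (3.02-fold and 5.90-fold), far apart in reads and less so in fold.

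Surface proteins and receptors of fibroblasts had members at 11 of 55 genes (20%), and 35 genes without a member lay in regions of all 4 libraries. OSMR, the receptor chain for oncostatin M, had 2261 reads in pEF 1 (15.4-fold) and 1718 in pEF 2 (8.90-fold) at chr16:24038401-24044400. ITGA8, the integrin chain that binds nephronectin, had 5981 reads and 6544 reads, 11.2-fold in both libraries, at chr10:46126001-46144800. TLR4, the receptor of bacterial lipopolysaccharide, had 807 reads (8.23-fold) and 2210 reads (14.04-fold) at chr1:258041401-258046400. FAP, a serine protease of activated fibroblasts, had 1693 reads (7.62-fold) and 2311 reads (9.49-fold) at chr15:68899001-68906200, next to members at DPP4 and IFIH1 on the same chromosome. EDNRA, an endothelin receptor, had 6.01-fold and 10.7-fold.

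Structural matrix genes had members at 8 of 45 (17.8%), and 30 genes without a member lay in regions of all 4 libraries. The median fold was 2.90 in pEF 1 and 2.59 in pEF 2, beside 5.87 and 4.19 at the mesenchymal transcription factors. LOXL4, a collagen cross-linking oxidase, had 963 reads in pEF 1 (4.62-fold) and 900 in pEF 2 (4.73-fold) at chr14:109566001-109573000, a region it shares with R3HCC1L. COL6A3, a chain of microfibrillar collagen, had 1118 reads (4.66-fold) and 590 reads (2.61-fold) at chr15:137097201-137105400. COL14A1, a collagen of fibril surfaces, had 1060 reads (3.37-fold) and 758 reads (2.98-fold) at chr4:18689001-18699400. COL15A1, POSTN, LUM, PRELP and FBLN5 completed the list, and COL1A2, FN1 and COL12A1 were in fibroblast-only regions of 20 kb or wider. The one at FN1 had only 1.86-fold in pEF 1 and 1.96-fold in pEF 2, and FN1 had an end island of both pgEpiSC libraries. The one at COL12A1 had 1.92-fold and 3.53-fold, and 1 pgEpiSC library had an island in that gene or within 10 kb.

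Matrix proteases and inhibitors had members at 6 of 37 (16.2%). ADAMTS9, a protease that cleaves proteoglycans, had 4352 reads in pEF 1 (9.28-fold) and 4433 in pEF 2 (8.14-fold) at chr13:46196001-46212800. HTRA3, a secreted serine protease, had 293 reads (8.5-fold) and 262 reads (4.30-fold) at chr8:2819201-2820800, with a pgEpiSC island 1 kb away. SERPINB2, an inhibitor of plasminogen activators, had 660 reads (3.90-fold) and 1420 reads (6.07-fold) at chr1:157888001-157895800.

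Interferon response and antigen presentation genes had members at 9 of 33 (27.3%), and at 22 with islands of at least 2-fold in all libraries. IFIH1, the cytosolic sensor of long double-stranded RNA, had 1177 reads in pEF 1 (12.2-fold) and 468 in pEF 2 (7.08-fold) at chr15:68982801-68986600. B2M, the light chain of class I molecules, had 315 reads (10.5-fold) and 137 reads (4.77-fold) at chr1:126843801-126845400. GBP2, an interferon-induced GTPase, had 594 reads (7.11-fold) and 469 reads (4.61-fold) at chr4:127407401-127410000. XAF1, OAS2, DDX58, CD274 and a locus listed as LOC100151816, for which the gene table gives the synonym IFIT5, were the remaining members beside SLA-3. In 7 of the 10 regions of this list the fold was larger in pEF 1. The median fold of all members was larger there too (3.77 in pEF 1 and 3.48 in pEF 2), so nothing is read from this count.

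Inflammatory mediators had members at 8 of 37 (21.6%). CCL20, a chemokine, had 765 reads in pEF 1 (6.12-fold) and 1758 in pEF 2 (5.91-fold) at chr15:129170401-129180200. PTGS1, a cyclooxygenase, had 1440 reads (5.28-fold) and 536 reads (6.10-fold) at chr1:262480601-262490200. TNFAIP6, which modifies hyaluronan, had 522 reads (4.18-fold) and 1226 reads (4.88-fold) at chr15:874401-882600. The chemokine genes CXCL8 and CXCL2 had 181 and 480 reads in pEF 1 against 457 and 1722 in pEF 2.

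The AP-1, TEAD and YAP axis had members at 2 of 25 genes (8%), BATF3 (5.81-fold in pEF 1 and 4.98-fold in pEF 2) and VGLL3 (4.65-fold and 4.14-fold). Of the genes without a member, 22 lay in regions of all 4 libraries. BATF3 and VGLL3 themselves had end islands of both pgEpiSC libraries. Smooth muscle and contractile genes had members at 2 of 32 (6.25%), ACTG2 and MRVI1, and 28 genes without a member lay in regions of all 4 libraries. None of 14 housekeeping genes, none of 30 epithelial adhesion genes and none of 9 germ cell genes had a member. All 14 housekeeping genes were in regions of all 4 libraries. With islands of at least 2-fold in all libraries, 3 housekeeping, 1 epithelial adhesion and 2 germ cell genes had one. The pluripotency and epiblast list had 1 of 31, DNMT3L, a cofactor of de novo DNA methylation, with 431 reads in pEF 1 (6.25-fold) and 378 in pEF 2 (4.57-fold) at chr13:207118201-207121400. A pgEpiSC island lay 1 kb from it.

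**Figure D4:**
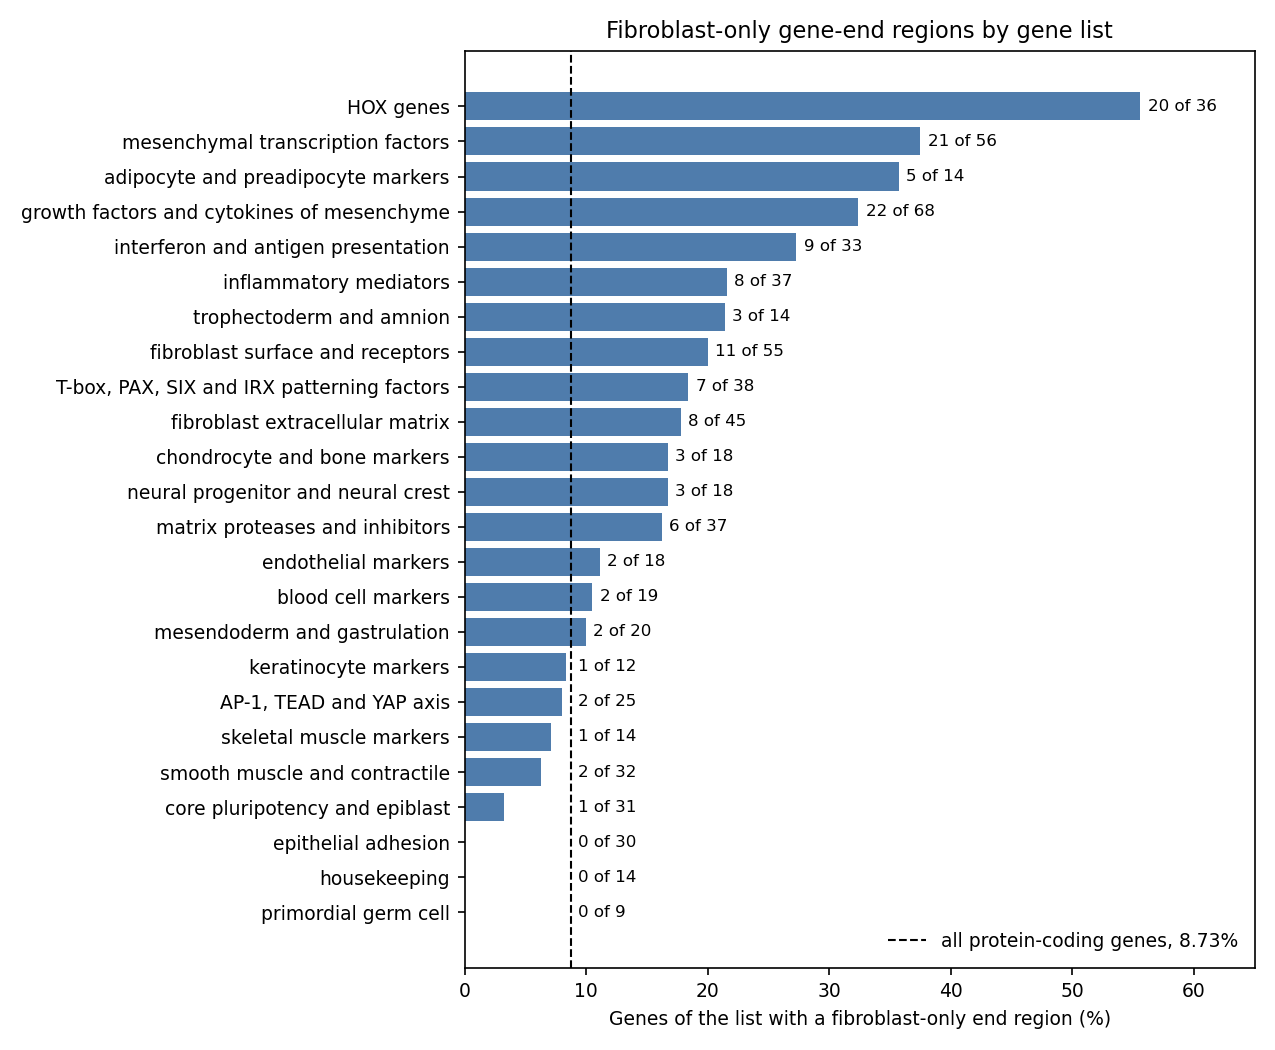
Percent of the measured genes of each of the 24 lists that had a fibroblast-only end region, with the number of genes beside each bar; the dashed line marks the 8.73% of all protein-coding genes. HOX genes (55.6%) and mesenchymal transcription factors (37.5%) stand at the top, and epithelial adhesion, germ cell and housekeeping genes at 0.

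Lists of genes known from other cell types gave members as well. Adipocyte genes had 5 of 14 (35.7%), among them PPARG, the master regulator of fat cells, with 314 reads in pEF 1 (5.32-fold) and 345 in pEF 2 (3.67-fold) at chr13:68300401-68303400. CD36, a fatty acid transporter, had 2431 reads (8.79-fold) and 3275 reads (12.8-fold) at chr9:99778201-99788200. Trophectoderm and amnion genes had 3 of 14 (21.4%), GATA3, HAND1 and TFAP2B, with folds between 2.21 and 3.77. A pgEpiSC island lay 0.2 kb from the GATA3 region. Neural genes had 3 of 18 (16.7%), FABP7, NKX2-2 and PAX6. NKX2-2 held 1317 reads in pEF 1 (9.14-fold) and 281 in pEF 2 (2.67-fold).

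Chondrocyte and bone genes had 3 of 18 (16.7%), SOX6, COL10A1 and MATN3. Smaller shares were those of endothelial genes with 2 of 18 (11.1%), ERG and FLI1, and blood cell genes with 2 of 19 (10.5%), among them TAL1. Mesendoderm genes had 2 of 20 (10%), GATA6 and MESP1, keratinocyte genes 1 of 12 (8.33%), and skeletal muscle genes 1 of 14 (7.14%), CHRNA1. These smaller shares lie near the 8.73% of all protein-coding genes, and nothing is read from them. In bulk cultures a mark in few cells and a weak mark in all cells cannot be told apart.

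CDKN2B, a cyclin-dependent kinase inhibitor gene, was 1 of the genes with 3 separate members, the most of any gene. Its regions held 2208, 1779 and 1767 reads in pEF 1 (6.94-fold, 7.37-fold and 9.33-fold) and 2525, 934 and 1114 in pEF 2 (6.04-fold, 4.07-fold and 10.8-fold). They lay at chr1:200664201-200676800, chr1:200760201-200769200 and chr1:200770801-200777000, and the last also touched the end of P14ARF, which encodes an activator of p53. No pgEpiSC island lay in the gene or within 10 kb of it. NFIX, a nuclear factor I gene, had 3 regions as well, from 7.33-fold in pEF 1 and 4.22-fold in pEF 2 at chr2:66054001-66057400 to 1.60-fold and 1.95-fold at chr2:66058401-66061200. KCNAB1, KLHL6 and LOC100739218 were the others named by the rule.

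Members clustered in places. Another member lay within 50 kb of 386 regions (25.3%), 117 genes (7.16%) had 2 or more separate regions and 177 (10.8%) had a member at both ends. Beside the HOXB run, 4 runs held 4 regions each. The gastrokine genes GKN1, GKN2 and GKN3, known as secreted proteins of the stomach lining, carried one over 59 kb at chr3:73404601-73463600. The largest region of that run, at GKN1, was 19.6 kb wide with 2623 reads in pEF 1 (5.20-fold) and 3407 in pEF 2 (6.97-fold). The keratin genes KRT39 and KRT23, the pair FYB and C9, and CALU with its neighbours OPN1SW and FAM71F1 carried the other 3. By chromosome, the share of protein-coding genes with a member ran from 5.98% on chromosome 6 to 12.7% on chromosome 8.

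At the upper width limit, the widest members measured 19.6 kb, at LOC106504776, GKN1 and JCHAIN. The narrowest regions that met the rest of the rule but not the limit were at LTBP2 (20 kb, 7.29-fold in pEF 1 and 5.29-fold in pEF 2), ITGA8 (20.2 kb, 2.86 and 3.67) and LOC106507705 (20.2 kb, 5.47 and 7.70). In all, 42 regions were excluded by width. At the 2 kb limit, the 246 members 1 to 2 kb from the nearest gene end had median folds of 3.20 in pEF 1 and 3.09 in pEF 2, and the 304 regions 2 to 3 kb away had 3.33 and 3.03. The highest folds of all belonged to regions with few input reads. LOC100521069 had 153 ChIP over 4 input reads in pEF 1 and 237 over 2 in pEF 2, and the 56.1-fold of pEF 1 at CEBPZOS and EIF2AK2 came from 43 ChIP reads over 1 input read.

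A comparison that the rule did not use was made at regions of the same genes that all 4 libraries had called. ChIP reads in each library's islands were compared by edgeR's quasi-likelihood test over all 20051 such regions, with Benjamini-Hochberg adjustment and a threshold of 0.05. Because reads outside a library's own islands are not counted, every fold change below reflects the length its islands cover as well as read depth. Of the 1695 regions in a member gene or within 10 kb of one, 566 were higher in pEF than in pgEpiSC (33.4%, against 23.5% of all regions) and 226 were lower in pEF (13.3%, against 22.7% of all). The median log2 fold change, pEF over pgEpiSC, was 0.39 at member genes and 0.01 over all regions. Without TMM scaling the split was 454 higher and 287 lower, and that of all regions 3690 higher and 5597 lower, as the median of all regions shifted to -0.24. The shared regions lie beside the members in the same chromatin, so the counts are not independent of the rule, and no test was made of the difference between the shares. Leaving out pgEpiSC 1 reduced the calls at member genes to 239 higher and 81 lower, and leaving out pgEpiSC 4 to 245 and 89.

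By gene, 1020 of the 1634 (62.4%) had such a shared region. At 434 of them (42.5%) at least 1 was higher in pEF and none lower, at 122 (12%) at least 1 was lower and none higher, at 69 (6.76%) both occurred, and at 395 (38.7%) no region passed the test.

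**Figure D5:**
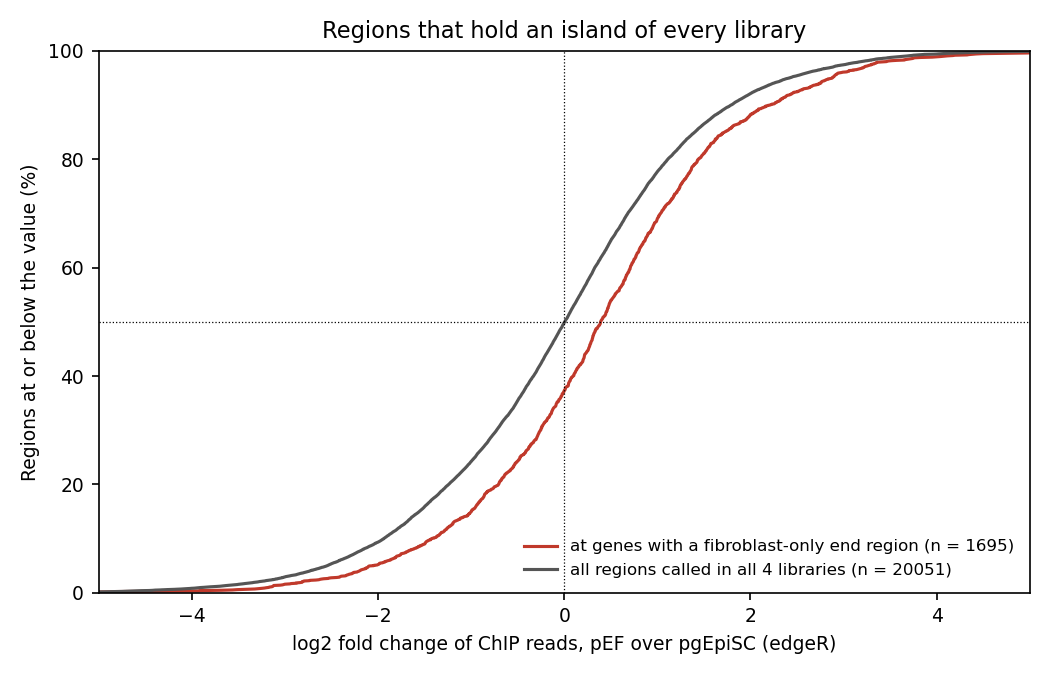
Cumulative share of regions called in all 4 libraries by log2 fold change of ChIP reads, pEF over pgEpiSC, for the 1695 regions at genes with a fibroblast-only end region and for all 20051 regions. The axis is drawn from -5 to 5, and the curve of the member genes lies to the right, with a median of 0.39 against 0.01.

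Per list the shared regions are few, their counts are given beside the 23.5% higher and 22.7% lower of all regions, and nothing is read from a share near these. Matrix genes with a member had 12 shared regions, of which 7 were higher in pEF and 1 lower. The shared region at LUM, which encodes the proteoglycan lumican, was chr5:91717201-91755000. It held 6077 reads in pEF 1 and 6908 in pEF 2, against 239 in pgEpiSC 1 and 300 in pgEpiSC 4. None of its pgEpiSC islands lay in LUM or within 10 kb of that gene. The log2 fold change was 4.17 ± 0.20 (SE, edgeR adjusted p = 0.00124). COL15A1, a collagen of basement membrane zones, had 16593 and 14038 reads in pEF 1 and pEF 2, against 202 and 877 in pgEpiSC 1 and pgEpiSC 4 (log2 fold change 4.5 ± 0.65, edgeR adjusted p = 0.00558). At COL14A1 the shared regions went both ways. The region at chr4:18831801-18849200 was higher in pEF, with 1694 and 5008 reads against 294 and 326 in pgEpiSC, and the region at chr4:18779401-18803200 was lower, with 397 and 394 reads against 2196 and 2585 in pgEpiSC.

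Among the mesenchymal transcription factors, 7 of 17 shared regions were higher in pEF and 2 were lower. RUNX1, a factor of blood and of mesenchyme, had 4 of the 7. The largest change there was at chr13:198455001-198480400, with 10383 reads in pEF 1 and 10106 in pEF 2 against 361 in pgEpiSC 1 and 390 in pgEpiSC 4 (log2 fold change 4.35 ± 0.21, edgeR adjusted p = 0.00124). Both regions that were lower in pEF were at MEOX1, a factor of the somites.

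Growth factor genes had 2 of 7 shared regions higher in pEF, at WNT5A and DKK3. WNT5A, a non-canonical WNT ligand, had 4450 reads in pEF 1 and 5342 in pEF 2, against 133 in pgEpiSC 1 and 212 in pgEpiSC 4, at chr13:37352801-37368600 (log2 fold change 4.43 ± 0.24, edgeR adjusted p = 0.00124). The protease genes had 3 of 4 higher in pEF, at ADAM33 and HTRA1. At ERG and FLI1, ETS factors known from the endothelium, 5 of 7 were higher in pEF. The receptor list had 3 of 10 higher, at CD44 and ITGB3, and 2 lower, at CDH2 and OSMR. The shares higher in pEF of the growth factor and receptor lists lay between those of all regions and of all member genes. None of the 7 growth factor regions was lower in pEF. OSMR thus had a member region at one of its ends and, at chr16:24088401-24096200, a shared region with 601 and 342 reads in pEF 1 and pEF 2 against 1288 and 1116 in pgEpiSC 1 and pgEpiSC 4 (log2 fold change -1.78 ± 0.39, edgeR adjusted p = 0.0179).

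Other listed genes with a fibroblast-only end region and a shared region lower in pEF were DNMT3L, PPARG, SOX6, DDX58 and CD274. The interferon list had 1 of 8 shared regions higher, at CD274, and 2 lower, at DDX58 and CD274, and the chondrocyte list had 1 of 5 higher and 2 lower, all at SOX6. At SOX6 the log2 fold change was 4.12 at chr2:42451801-42459800 but -1.94 and -1.55 at the regions lower in pEF (edgeR adjusted p = 0.00124, 0.00761 and 0.0219). The shared regions at TBX5, TBX15, TBX20 and HOXD1 did not pass, with edgeR adjusted p between 0.108 and 0.992. At DNMT3L the shared region at chr13:207089201-207109800 held 105 reads in pEF 1 and 600 in pEF 2, against 1329 in pgEpiSC 1 and 1860 in pgEpiSC 4 (log2 fold change -2.61 ± 0.78, edgeR adjusted p = 0.0431). At PPARG the region at chr13:68407601-68438200 held 894 and 1331 reads in pEF 1 and pEF 2, against 1460 and 1642 in pgEpiSC 1 and pgEpiSC 4 (log2 fold change -0.91 ± 0.25, edgeR adjusted p = 0.0327).

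Over all member genes, the largest changes in the pEF direction were at LOC102164776, FAM78B, ARHGAP31, TMEM26 and BPGM, with log2 fold changes of 6.34, 5.49, 5.30, 5.18 and 5.16 (edgeR adjusted p between 0.00124 and 0.00207). At ARHGAP31, a GTPase-activating protein for Rac and Cdc42, 6261 reads in pEF 1 and 5648 in pEF 2 stood against 129 in pgEpiSC 1 and 93 in pgEpiSC 4. Reads are counted only inside each library's own islands, and at ARHGAP31 these covered 21.6 and 21.4 kb in pEF 1 and pEF 2, against 2.4 and 1.0 kb in pgEpiSC 1 and pgEpiSC 4. As at every shared region, the fold change there reflects the covered length as well as the depth of reads.

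In the other direction, the largest changes were 2 regions inside FHIT (log2 fold change -6.58 and -4.89), and 1 each at TMEM117 (-5.21), WWOX (-4.81) and SLC19A2, a thiamine transporter gene (-4.27), with edgeR adjusted p between 0.00124 and 0.00424. FHIT and WWOX are very long genes, which in humans span fragile sites. The first FHIT region, chr13:42400201-42457400, held 90 reads in pEF 1 and 99 in pEF 2, against 6587 in pgEpiSC 1 and 6845 in pgEpiSC 4, with islands over 1.6 and 1.8 kb in the pEF libraries against 55.8 and 55.6 kb in the pgEpiSC libraries. These 10 regions were named for the size of their change, so that the groups did not overlap there follows from the choice.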

How the data were processed

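H3K27ac ChIP-seq lists of 4 libraries (pEF 1, pEF 2, pgEpiSC 1, pgEpiSC 4) were used. Per the submitters' processing notes, BWA 0.7.15, SAMtools 0.1.19 and SICER 1.1 were used; the sources used here give neither duplicate handling nor the genome build. Scaffold names in the deposited lists are those of the Sscrofa11.1 assembly, whose RefSeq table (no strand, no sequence) gave gene names and ends. Coordinates of regions are those of the deposited lists, 1-based. Deposited whole-number counts give the ChIP and input reads of each island. A deposited p-value against input and an FDR follow, and since the FDR reached 1 it had not been used as a filter. The deposited fold is a ratio of ChIP to scaled input reads, with 1 scaling constant per list. Whole library depth is not used here; intervals on counts would cover counting error only.

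Islands overlapping by at least 1 bp were merged. Region folds were recomputed from summed counts with each list's constant; net reads are ChIP minus scaled input per kb and per 1000000 island reads. ChIP reads of regions called in all 4 libraries were tested with edgeR 4.0.16 (quasi-likelihood, TMM, 2 residual degrees of freedom; limma 3.58.1, R 4.3.3), and with DESeq2 1.42.0 as an alternative. Python 3.11.15, numpy 2.4.6, pandas 2.3.3 and matplotlib 3.10.9 were used. The test was checked on simulated counts of the 20051 regions compared between pEF and pgEpiSC. It recovered 8 of 100 regions changed by 1 on the log2 scale and 89 of 100 changed by 2. All other regions were left unchanged there, while 4715 higher and 4552 lower regions were called in the data. The adjustment was therefore stricter in the simulation, and these recoveries do not give the power of the test here. The members, the 24 gene lists (680 distinct measured genes) and the naming rule were chosen with earlier results of these data known. The rule named the 12 strongest regions, up to 3 genes per list, the 3 widest members and the 3 regions just over 20 kb, the 5 genes with most regions and the 5 largest shared-region changes per direction. Other genes named from the lists were picked after their values were seen. Promoter sequence was not analysed here. Values of a few listed genes are not reported here.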

Additional observations from a re-analysis of the deposited data

How the results depend on the processing

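The number of regions moved by more than 1.5 times under 2 settings. With islands of at least 2-fold over input in all libraries there were 3134 regions at 3430 genes, 227 of them listed, and 1402 of the 1634 genes were shared with the list as reported (85.8% of it and 40.9% of the 3430). Per list, that fold limit gave 22 interferon, 22 receptor, 17 T-box and paired-box, 15 inflammatory, 13 matrix, 12 protease, 6 AP-1 and 6 contractile genes, and 3 housekeeping genes, all over 1.5 times the counts as reported; HOX genes stayed at 20. The fold of the median island lay under that limit in pgEpiSC 1 and pgEpiSC 4 (1.79 and 1.67) and above it in pEF 1 and pEF 2 (3.40 and 3.45). The limit thus removed a larger share of the pgEpiSC islands, and the part of this in the counts was not tested. With a window of 5 kb there were 2444 regions at 2610 genes. FDR limits, a fold limit of 2 on pEF islands alone, a 1 kb window, merging across 1 kb, and a 10 kb or no width limit gave between 1277 and 2059 regions. Leaving out 1 library in the choice gave 1760 to 2151 regions at 1882 to 2215 genes. The median pEF fold was 3.62 as reported, 3.65 with an FDR limit of 0.01 on pEF islands, 3.48 for regions under 10 kb and 3.75 with a 1 kb window. Each pEF library alone (3.77 in pEF 1 and 3.48 in pEF 2) lies within the spread of both by construction, so that comparison shows nothing. The median was not compared under the fold limit in all libraries or the 5 kb window. In the test of shared regions, leave-one-out fits gave 239 to 584 higher and 81 to 269 lower at member genes, and 2004 to 4850 higher and 1861 to 4965 lower over all regions; in fits with 1 library of a type, that library is assumed to vary like the others. The counts fell by more than 1.5 times without pgEpiSC 1 or without pgEpiSC 4, and the cause was not tested. DESeq2 gave 610 higher and 278 lower at member genes. Over all regions the higher calls outnumbered the lower ones as reported (4715 and 4552), but not without TMM (3690 and 5597), without pEF 1 (4850 and 4912) or without pEF 2 (4828 and 4965); at member genes they did in every fit run. No paired analysis was possible because the pEF libraries are numbered 1 and 2 and the pgEpiSC libraries 1 and 4. The planned promoter motif counts were not run, as no promoter sequence was used here. The lower fold over input of the pgEpiSC islands limits what the absence of an island can show.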

Other observations

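Beyond the lists, several gene families picked after their values were seen had more than 1 member. Of 11 PARP genes 4 had a fibroblast-only end region (36.4%), and of 12 ITGA genes 4 did (33.3%), beside 8.73% of all protein-coding genes. PARP12, an interferon-induced enzyme of the ADP-ribosylation family, had 2721 ChIP reads in pEF 1 (18.1-fold) and 1082 in pEF 2 (9.50-fold) at chr18:9673601-9679000. PARP14, of the same family, had 1216 reads in pEF 1 (8.14-fold) and 423 in pEF 2 (4.02-fold) at chr13:137862201-137867400. PARP4 and PARP11 had 9.93-fold and 5.45-fold in pEF 1 and 6.82-fold and 4.43-fold in pEF 2. At all 4 PARP regions the fold was larger in pEF 1 than in pEF 2, as was the median over all members (3.77 and 3.48). The integrin chains were ITGA2, ITGA7, ITGA8 and ITGA10, and ITGA7, a laminin receptor chain of muscle, had 2 regions. The one it shares with METTL7B held 1077 reads in pEF 1 (10.2-fold) and 438 in pEF 2 (5.79-fold).

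A few more genes were picked after their values were seen. CYP19A1 and CYP19A2, 2 of the aromatase copies of the pig, had 1827 and 827 reads in pEF 1 (7.09-fold and 8.56-fold) and 623 and 499 in pEF 2 (5.01-fold and 6.37-fold). The copies are closely similar, so their reads may be shared. CYP11A1, the side-chain cleavage enzyme, had 5.89-fold and 6.32-fold in pEF 1 and pEF 2 at a region it shares with CCDC33. GNG12, a G protein gamma subunit, had 1512 reads in pEF 1 (11.4-fold) and 1994 in pEF 2 (11.0-fold) at chr6:144780601-144785200. TGFBR1, a receptor of TGF-beta, had 299 reads (11.5-fold) and 244 reads (9.67-fold) in pEF 1 and pEF 2 at chr1:240842401-240844000.

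The libraries of the fibroblasts differed over 2-fold at 153 members, of which 3 are given here, picked after their values were seen. CMAH, the hydroxylase of sialic acid, had 645 reads in pEF 1 (4.05-fold) and 4902 in pEF 2 (12.4-fold). ADGRF1, an adhesion receptor, had 397 reads in pEF 1 and 1726 in pEF 2 (3.14-fold and 10.1-fold). VAMP8, a protein of vesicle fusion, went the other way, with 715 reads in pEF 1 (19.4-fold) and 629 in pEF 2 (5.98-fold), on 48 and 121 input reads.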
